A study of Mus musculus with 54 samples.

Results

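The genes described here are 8 enzymes of cholesterol synthesis, *Hmgcs1*, *Idi1*, *Fdps*, *Fdft1*, *Sqle*, *Lss*, *Cyp51* and *Dhcr7*, followed over a light/dark cycle in the mouse suprachiasmatic nucleus (SCN), the hypothalamic nucleus that holds the central circadian clock. They were chosen by symbol from the 30031 genes of the count table, each through 1 Ensembl identifier, and all 8 were among the 18941 genes tested. The SCN was cut out whole by laser-capture microdissection from frozen, Nissl-stained sections and its poly(A) RNA was amplified and sequenced. There were 6 groups, one for each zeitgeber time (ZT, hours after lights on) of 2, 6, 10, 14, 18 and 22 hr, with 3 biological replicates (A, B and C) per group, and every replicate was sequenced on 3 lanes that the authors combined. All groups held untreated male C3H/HeH mice of 10 to 12 weeks, kept in 12 hr of light and 12 hr of dark and singly housed before harvest. The labels of the groups differ only in the time of harvest. A replicate is the pooled tissue of 5 mice, so the spread between replicates is one between pools and not between animals. Sampling in constant darkness was not part of the design, so a change over the cycle cannot be divided into a response to light and an internal rhythm.

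Cholesterol is built in the endoplasmic reticulum from acetyl-CoA. The early enzymes make mevalonate and from it the isoprenoids isopentenyl diphosphate and farnesyl diphosphate. Squalene synthase commits farnesyl diphosphate to sterols, and the later enzymes close the ring of lanosterol and trim it to cholesterol. Transcription of these genes is classically driven by SREBP2 (encoded by *Srebf2*), a membrane-bound factor that SCAP and INSIG proteins retain while sterol is plentiful and that binds sterol regulatory elements together with NF-Y and Sp1. The adult brain makes its own cholesterol behind the blood-brain barrier, largely in glia, and passes it to neurons on ApoE particles.

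The promoters are shown because these genes classically share a regulator, and they let a reader see which of its motif letters lie near each start site. RefSeq promoter windows on GRCm38.p6, from 250 bases before to 50 bases after a start site, were at hand for 5 of the 8 members, and *Fdps*, *Fdft1* and *Sqle* are named only. Both strands were searched for TCACNCCAC (a sterol regulatory element), CCAAT (bound by NF-Y), GGGCGG (bound by Sp1) and CACGTG (the E-box of CLOCK and BMAL1), none of which contains another. TCACNCCAC was found in 1.24% of all 32851 mouse promoter windows, CCAAT in 37.4%, GGGCGG in 35.7% and CACGTG in 7.15%. The stretches below run 5′ to 3′ on the strand of the gene, stop before the start site and before any annotated exon base, and carry in capitals the letters of any searched motif on either strand. They lie at chr13:119690101-119690350 (plus strand) for *Hmgcs1*, chr10:76531355-76531587 (plus strand) for *Lss*, chr5:4104747-4104947 (minus strand) for *Cyp51* and chr7:143822917-143823144 (plus strand) for *Dhcr7*.
Hmgcs1: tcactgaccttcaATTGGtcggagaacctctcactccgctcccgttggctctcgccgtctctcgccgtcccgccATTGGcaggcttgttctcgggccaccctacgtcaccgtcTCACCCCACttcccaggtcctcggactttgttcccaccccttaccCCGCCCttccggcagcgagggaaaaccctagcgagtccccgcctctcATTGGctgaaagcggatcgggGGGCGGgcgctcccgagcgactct
Lss: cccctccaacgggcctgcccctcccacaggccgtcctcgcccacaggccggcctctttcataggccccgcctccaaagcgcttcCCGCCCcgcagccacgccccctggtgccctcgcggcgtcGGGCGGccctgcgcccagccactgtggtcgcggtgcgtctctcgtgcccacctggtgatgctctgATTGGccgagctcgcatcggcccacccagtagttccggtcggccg
Cyp51: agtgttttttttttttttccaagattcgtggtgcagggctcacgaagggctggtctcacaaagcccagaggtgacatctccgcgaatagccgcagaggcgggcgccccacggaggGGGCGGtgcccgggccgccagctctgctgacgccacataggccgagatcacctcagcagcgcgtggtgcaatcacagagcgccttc
Dhcr7: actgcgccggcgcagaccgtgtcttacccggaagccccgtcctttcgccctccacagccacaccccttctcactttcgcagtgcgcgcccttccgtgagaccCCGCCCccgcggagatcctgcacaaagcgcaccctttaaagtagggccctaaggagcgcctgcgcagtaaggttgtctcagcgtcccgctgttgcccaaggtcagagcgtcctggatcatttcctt
Of the members with a window, only *Hmgcs1* held TCACNCCAC. It lay 137 bases before the start site, with CCAAT or its complement ATTGG at 4 places in the same window, 3 of them in the printed stretch. The windows of *Lss* and *Cyp51* held 1 CCAAT each, the one of *Cyp51* within an annotated exon and so not printed. The window of *Idi1* held 2 CCAAT and 1 GGGCGG and lay wholly within annotated exons. CACGTG was found only in 1 of the 3 alternative windows of *Dhcr7*, also wholly exonic and not printed. Another of these windows, not printed either, held 2 CCAAT and 3 GGGCGG on either strand. A match is a description of letters and not a binding site. Only these exact letters were searched, so a window without TCACNCCAC may still hold a sterol regulatory element in other letters.

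The replicates held from 15412981 to 35820945 gene counts (median 25075231). A single member received between 48 (*Idi1*) and 14998 (*Hmgcs1*) reads in a replicate. The RNA was whole-SCN bulk RNA, in which fewer cells of a type and less RNA per cell cannot be told apart. The study's own principal component plot labels libraries by time and by batch of sequencing, and groups them by pairs of neighbouring timepoints (ZT22 and ZT2, ZT6 and ZT10, ZT14 and ZT18), here called clusters. No timepoint has libraries in more than 1 of these clusters, so time and any batch that follows them cannot be told apart between clusters. The comparison of the timepoints inside each of the 3 clusters is therefore given beside those between clusters.

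All 8 members changed over the 6 timepoints and all 8 were called cycling. Levels are CPM, the reads of a gene relative to all reads of its library, after TMM normalization for composition, and change over time was tested by edgeR's quasi-likelihood F-test across all tested genes with Benjamini-Hochberg adjustment. The adjusted p lay between 2.41e-06 (*Fdps*) and 0.00753 (*Cyp51*), against 8343 called genes or 44.0% of all tested genes. JTK_CYCLE, a rank test against cosine curves of 24 hr, gave p between 0.000147 (*Hmgcs1* and *Fdft1*) and 0.00672 (*Sqle*), and time test and JTK_CYCLE together called 29.9% of all tested genes. The replicates of the highest and of the lowest timepoint did not overlap for any of the 8 members, which was also true of 76.8% of all tested genes. The median ratio of the highest to the lowest timepoint mean was 3.62 over the 8 members, beside 2.33 over the 9611 tested genes with a mean of at least 10 CPM and 2.77 over the 6490 of these that were called over time.

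The curves took 2 shapes. *Hmgcs1*, *Idi1*, *Fdps*, *Fdft1*, *Lss* and *Dhcr7* were highest at ZT22 or ZT2 and lowest at ZT6 or ZT10. *Sqle* and *Cyp51*, which act one step apart around *Lss*, were highest at ZT18 or ZT14 and lowest at ZT2. The best JTK_CYCLE peak was ZT22 for the former and ZT14 for the latter genes, and cosine curves fitted with limma peaked between 20.7 hr (*Fdft1*) and 22.2 hr (*Fdps*) in the one set and at 14.8 hr in both genes of the other.

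**Figure D1:**
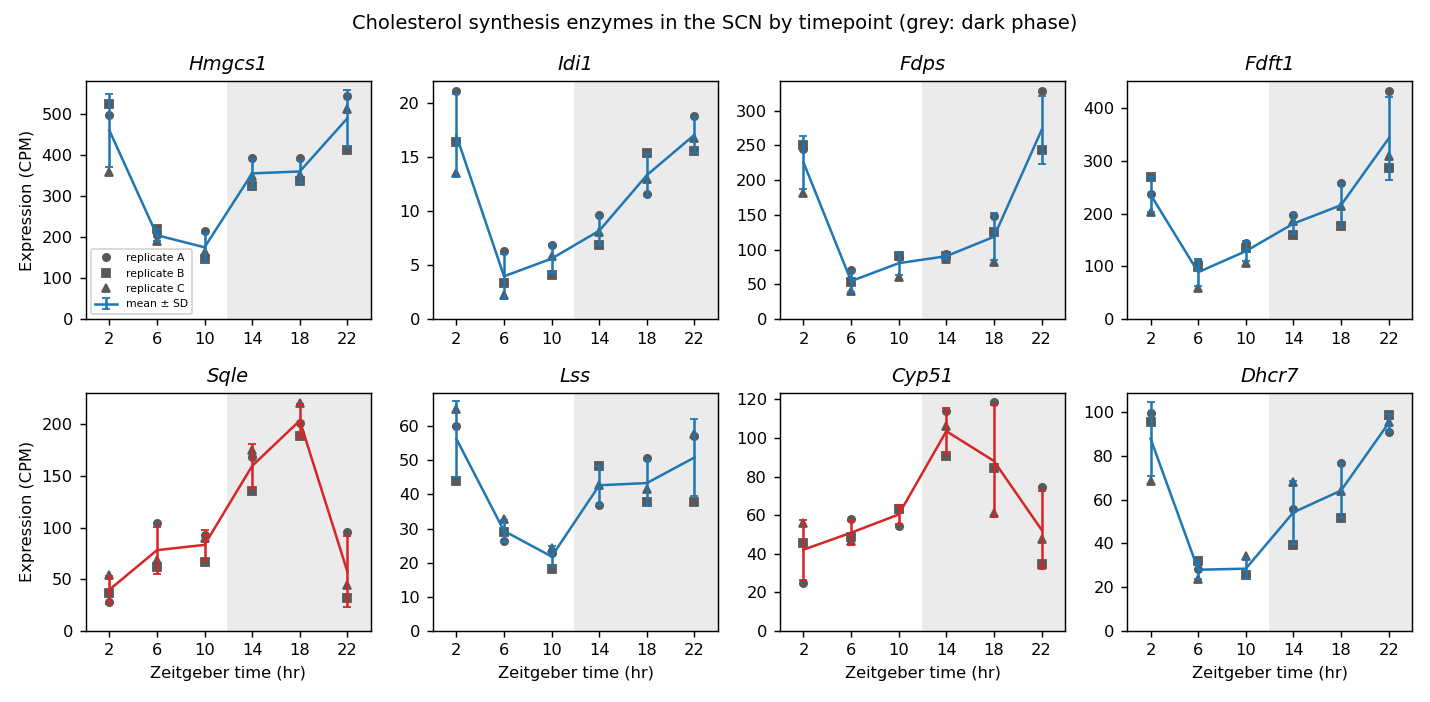
CPM of the 8 enzymes against zeitgeber time in hours, with the 3 replicates as grey symbols, the mean ± SD as a line (blue for the genes highest at ZT22 or ZT2, red for *Sqle* and *Cyp51*) and the dark phase shaded. The blue curves drop at ZT6 and ZT10, while the red curves are high at ZT14 and ZT18 and low at ZT2 and ZT22.

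*Hmgcs1* (ENSMUSG00000093930, chr13:119690379-119708260) encodes the cytosolic HMG-CoA synthase, an early enzyme on the way to mevalonate, and it was the most abundant member at 74.0 CPM per kb of exon. Its replicates measured 497, 523 and 357 CPM at ZT2, 204, 219 and 190 at ZT6, and 214, 147 and 163 at ZT10. In the dark they measured 392, 324 and 347 CPM at ZT14, 391, 335 and 351 at ZT18, and 543, 411 and 512 at ZT22. Every ZT6 and ZT10 library was below every other library, and the means of ZT14 (354 ± 35.0, SD, n = 3) and ZT18 (359 ± 28.8) were almost the same. The highest mean, 489 ± 69.4 CPM at ZT22, was 2.797 times the lowest, 175 ± 35.2 at ZT10 (adjusted p over time 1.05e-05).

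*Idi1* (ENSMUSG00000058258, chr13:8885501-8892451) encodes isopentenyl-diphosphate isomerase, which supplies the primer for chain building, and it was the least abundant member at 3.09 CPM per kb. Its replicates measured 21.0, 16.4 and 13.5 CPM at ZT2, 6.29, 3.32 and 2.27 at ZT6, and 6.84, 4.12 and 5.805 at ZT10. They measured 9.59, 6.88 and 8.03 CPM at ZT14, 11.6, 15.4 and 12.9 at ZT18, and 18.8, 15.5 and 16.8 at ZT22. The means rose without a break from ZT6 to ZT22, and the replicates of ZT14 and ZT18 did not overlap. ZT22 (17.03 ± 1.67 CPM) was 4.30 times ZT6 (3.96 ± 2.08; adjusted p over time 0.000350).

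*Fdps* (ENSMUSG00000059743, chr3:89093588-89101959) encodes farnesyl diphosphate synthase, at the branch point towards sterols, prenylated proteins, dolichol and ubiquinone. Its replicates measured 245, 250 and 182 CPM at ZT2, 70.1, 54.1 and 40.1 at ZT6, and 89.7, 90.5 and 61.3 at ZT10. They measured 94.2, 91.2 and 86.6 CPM at ZT14, 148, 126 and 81.8 at ZT18, and 328, 243 and 245 at ZT22. All 6 libraries of ZT22 and ZT2 were above all others, whereas those of ZT10, ZT14 and ZT18 ran into each other. ZT22 (272 ± 48.7 CPM) was 4.97 times ZT6 (54.8 ± 15.0; adjusted p over time 2.41e-06). A protein-coding gene that was not counted shares 1124 exon bases with *Fdps* on the same strand. The part of such shared reads was not tested.

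*Fdft1* (ENSMUSG00000021273, chr14:63145150-63179578) encodes squalene synthase, the first enzyme committed to sterols. Its replicates measured 236, 269 and 203 CPM at ZT2, 108, 99.7 and 59.8 at ZT6, and 144, 135 and 107 at ZT10. They measured 197, 160 and 187 CPM at ZT14, 258, 176 and 214 at ZT18, and 433, 286 and 309 at ZT22. It was the member with the lowest share of the variance of its timepoint means between the 3 clusters, 82.1%, against up to 98.9% (*Hmgcs1*). ZT22 (343 ± 79.0 CPM) was 3.85 times ZT6 (89.1 ± 25.7; adjusted p over time 3.36e-05). *Fdft1* overlaps *Ctsb*, a lysosomal protease gene on the other strand, over 774 exon bases, the library is not stated to keep strand, and *Ctsb* had means of 504 to 1293 CPM that were also lowest at ZT6 and highest at ZT22. The part that such shared reads take in *Fdft1* was not tested.

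*Sqle* (ENSMUSG00000022351, chr15:59315077-59331192) encodes squalene epoxidase, a rate-limiting enzyme of the later, sterol-specific steps. Its replicates measured 27.9, 36.8 and 54.4 CPM at ZT2, 104, 61.4 and 68.9 at ZT6, and 93.2, 66.3 and 90.2 at ZT10. They measured 168, 136 and 175 CPM at ZT14, 202, 188 and 221 at ZT18, and 95.9, 31.6 and 44.4 at ZT22. All 6 libraries of ZT14 and ZT18 were above all others, and ZT22 was the widest group because replicate A lay far above the other replicates. ZT18 (204 ± 16.3 CPM) was 5.13 times ZT2 (39.7 ± 13.4; adjusted p over time 8.68e-05), the widest ratio among the members.

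*Lss* (ENSMUSG00000033105, chr10:76531588-76557138) encodes lanosterol synthase, which closes the sterol rings. Its replicates measured 60.0, 43.8 and 65.0 CPM at ZT2, 26.2, 29.0 and 32.7 at ZT6, and 22.9, 18.3 and 24.2 at ZT10. They measured 36.9, 48.5 and 42.7 CPM at ZT14, 50.7, 37.7 and 41.6 at ZT18, and 57.0, 37.9 and 57.6 at ZT22. The 4 timepoints other than ZT6 and ZT10 overlapped each other, and ZT10 lay below ZT6 without overlap. ZT2 (56.3 ± 11.1 CPM) was 2.58 times ZT10 (21.8 ± 3.12; adjusted p over time 0.000538). An antisense gene shares 381 exon bases with *Lss*, but it reached at most 0.278 CPM as a timepoint mean.

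*Cyp51* (ENSMUSG00000001467, chr5:4081145-4104746) encodes lanosterol 14-alpha demethylase, the cytochrome P450 that follows *Lss*. Its replicates measured 25.0, 45.5 and 55.7 CPM at ZT2, 57.9, 48.4 and 46.3 at ZT6, and 54.4, 63.2 and 63.4 at ZT10. They measured 114, 90.6 and 106 CPM at ZT14, 119, 84.4 and 61.0 at ZT18, and 74.6, 34.8 and 47.7 at ZT22. Only ZT14 stood clear of ZT2, ZT6, ZT10 and ZT22, since ZT18 replicate C fell among the lower groups. ZT14 (104 ± 11.9 CPM) was 2.46 times ZT2 (42.1 ± 15.6; adjusted p over time 0.00753). It shares 166 exon bases with *Akap9* on the other strand, whose mean was also highest at ZT14 (232 CPM) and lowest at ZT2 (93.7 CPM), and the part of such shared reads was not tested.

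*Dhcr7* (ENSMUSG00000058454, chr7:143823145-143848410) encodes 7-dehydrocholesterol reductase, the last step to cholesterol in one arm of the pathway. Its replicates measured 99.6, 95.7 and 68.5 CPM at ZT2, 28.4, 32.0 and 23.5 at ZT6, and 25.6, 25.6 and 34.1 at ZT10. They measured 55.6, 39.1 and 67.9 CPM at ZT14, 76.8, 51.6 and 64.1 at ZT18, and 90.7, 98.8 and 95.5 at ZT22. Libraries of ZT6 and ZT10 were below all others. ZT22 (95.01 ± 4.06 CPM) was 3.40 times ZT6 (27.9 ± 4.27; adjusted p over time 9.45e-06).

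Ranked by mean, most neighbouring timepoints of a gene could not be separated. Over the 8 genes there are 40 pairs of neighbours in the order of means, and the replicates overlapped in 29 of them. The 11 pairs without overlap include the step down from ZT14 to ZT6 or ZT10 in *Hmgcs1*, *Idi1*, *Fdft1*, *Sqle*, *Lss* and *Dhcr7* and the step from ZT2 down to ZT18 in *Fdps*. Such neighbours were not counted over all tested genes, so whether 11 of 40 is unusual cannot be told. Per kb of exon, the mean levels over all timepoints were 74.0 CPM for *Hmgcs1*, 47.1 for *Fdft1*, 33.4 for *Fdps*, 18.7 for *Sqle*, 15.0 for *Cyp51*, 10.2 for *Dhcr7*, 3.77 for *Lss* and 3.09 for *Idi1*.

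In the comparison of the light with the dark phase, all 8 members were lower in the light as the mean of its timepoints. For all genes highest at ZT22 or ZT2, the light timepoint ZT2 had a higher mean than the dark timepoints ZT14 and ZT18. *Fdps*, for example, had 226 CPM at ZT2, 90.7 at ZT14 and 119 at ZT18. The lower light level of these genes thus lay at ZT6 and ZT10. The log2 difference of ZT2, ZT6 and ZT10 minus ZT14, ZT18 and ZT22 lay between -0.95 ± 0.19 (SE; *Sqle*, 1.93-fold lower) and -0.46 ± 0.13 (*Lss*, 1.38-fold lower), with adjusted p between 0.000264 (*Hmgcs1*) and 0.0128 (*Cyp51*) in edgeR's test. Of all tested genes 14.3% were called lower in the light, and the median of all was -0.13 beside -0.69 for the members. The light and the dark libraries overlapped for every member. In the 1 cluster that holds both phases, ZT22 (dark) with ZT2 (light), none of the 8 members passed the adjusted threshold. There 7 members had a higher estimate at ZT22, the same direction, and 1 (*Lss*) a lower one, but *Idi1* was almost level (log2 0.006). DESeq2 gave 6 members above 0 and 2 below. Such signs were not counted over all tested genes. The median log2 difference of ZT22 minus ZT2 was 0.19 for the members and 0.01 for all tested genes. Only 6 of 18941 tested genes were called in this comparison, so the lack of a call does not show that the difference was absent. With offsets for GC content and transcript length, an alternative chosen after the data were seen, *Lss* (log2 -0.24, adjusted p 0.196) and *Cyp51* (log2 -0.44, adjusted p 0.0519) were no longer called.

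The shape shared by most members was a trough at ZT6 and ZT10. This comparison and the next were chosen after the values were seen, so they describe the shapes and are no independent evidence of them. ZT6 and ZT10 together were lower than the other timepoints for 6 of the 8 members, by a log2 difference of -1.499 ± 0.23 (SE; *Idi1*), -1.38 ± 0.15 (*Dhcr7*), -1.27 ± 0.15 (*Fdps*), -1.15 ± 0.14 (*Fdft1*), -1.12 ± 0.11 (*Hmgcs1*) and -0.92 ± 0.14 (*Lss*), with adjusted p of at most 4.78e-05. Of all tested genes 21.1% were called lower in this comparison. The libraries did not overlap for 5 of these 6 genes (all but *Fdps*), against 3.74% of all tested genes in this direction. *Sqle* (log2 -0.20, 95% interval -0.63 to 0.22) and *Cyp51* (log2 -0.27, 95% interval -0.66 to 0.11) were not called. In whole reads recovered from a second, normalized table of the authors, whose reads at ZT6 and ZT10 differ from the counts in most genes, the 6 genes remained lower, with log2 differences between -1.38 (*Idi1*) and -0.79 (*Lss*). With GC and length offsets they were also still called lower, but *Lss* moved to -0.51 and *Fdft1* to -0.75, while *Sqle* (0.20) and *Cyp51* (0.11) turned in sign without a call.

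The members parted where ZT22 and ZT2 were set against ZT14 and ZT18. *Sqle* was 3.78-fold lower at ZT22 and ZT2 (log2 -1.92 ± 0.24, adjusted p 6.29e-06) and *Cyp51* was 2.03-fold lower (log2 -1.02 ± 0.21, adjusted p 0.00101), in a direction in which 20.1% of all tested genes were called. *Fdps* was 2.39-fold higher (log2 1.26 ± 0.17, adjusted p 1.71e-05), as were *Idi1* (log2 0.70 ± 0.25), *Dhcr7* (0.63 ± 0.16), *Fdft1* (0.52 ± 0.16) and *Hmgcs1* (0.41 ± 0.13) with adjusted p between 0.00455 and 0.0356, where 13.5% of all tested genes were called. The libraries of both pairs of timepoints did not overlap for *Sqle* (13.5% of all tested genes in this direction) or *Fdps* (7.55%). *Lss* gave a log2 difference of 0.31 with a 95% interval of -0.01 to 0.64. The call for *Idi1* was lost on leaving out ZT2 replicate A or B, ZT14 replicate B or C, ZT18 replicate A or any replicate of ZT22, with adjusted p up to 0.0938. It was lost for *Hmgcs1* without ZT2 replicate B (adjusted p 0.0523) and for *Fdft1* without ZT22 replicate A (0.0522).

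Composition was measured beside this contrast. The median transcript GC content was 46.4% for genes of at least 10 CPM called higher at ZT22 and ZT2 and 54.1% for those called lower, and the longest transcripts of the members held between 41.9% (*Idi1*) and 52.8% (*Dhcr7*). With GC and length offsets *Sqle* (log2 -2.04), *Cyp51* (-1.19), *Fdps* (1.25), *Dhcr7* (0.74) and *Fdft1* (0.54) were still called, and *Hmgcs1* (0.15, adjusted p 0.379) and *Idi1* (0.43, adjusted p 0.199) were not.

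A ratio of 2 genes within a library does not depend on how libraries are scaled. *Sqle* and *Fdps* are shown as the members with the most opposite differences in this contrast, so their separation was fixed by the choice of the pair. Reads of *Sqle* per read of *Fdps* came to 0.114, 0.147 and 0.298 at ZT2 and 0.292, 0.130 and 0.182 at ZT22. The ratio was 1.48, 1.13 and 1.72 in the ZT6 libraries and 1.04, 0.732 and 1.47 in those of ZT10. In the dark it came to 1.79, 1.49 and 2.02 for ZT14, and to 1.36, 1.495 and 2.70 for ZT18. Every library of ZT22 and ZT2 lay below every library of the other timepoints, at which *Sqle* was mostly the more abundant of the pair.

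**Figure D2:**
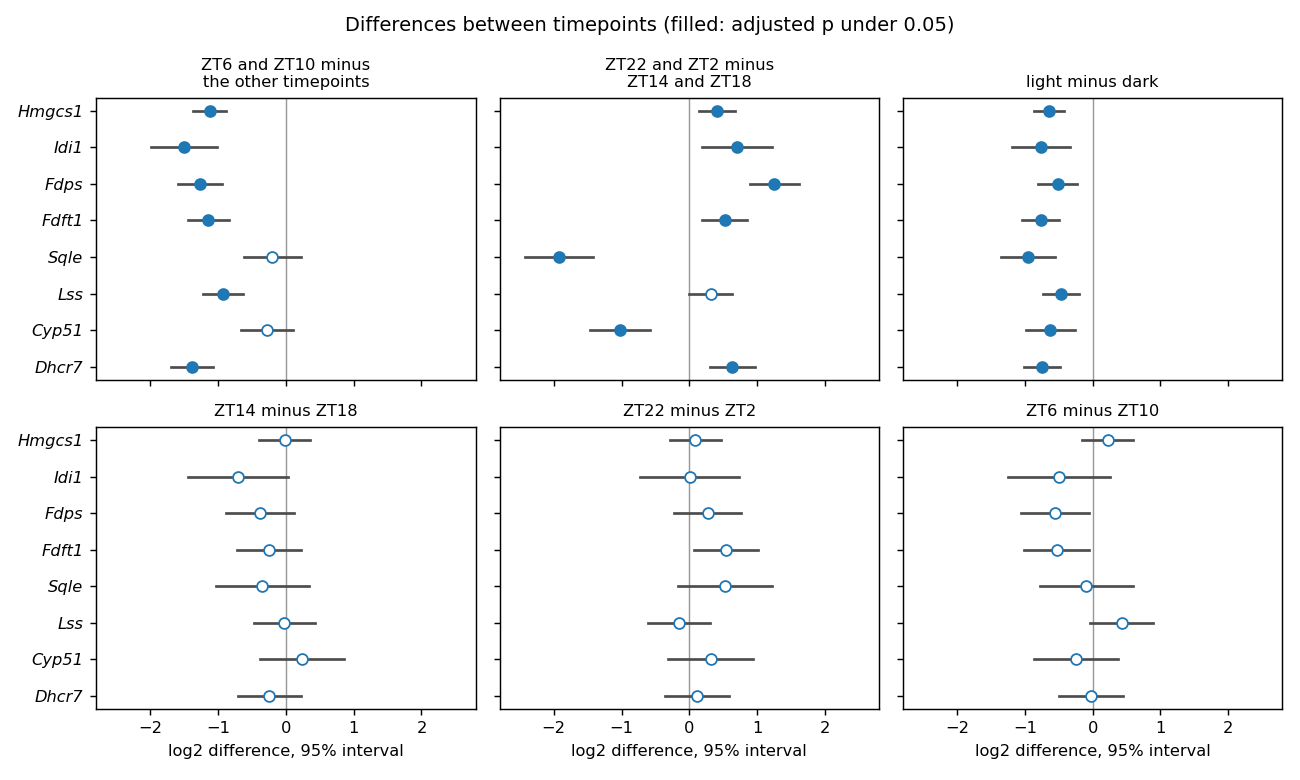
Log2 differences of the 8 enzymes (rows) for 6 comparisons, with 95% intervals and filled points for an adjusted p under 0.05. The comparison of ZT6 and ZT10 with the rest has 6 filled points, that of ZT22 and ZT2 with ZT14 and ZT18 has 7 and that of light with dark has 8, while the 3 within a cluster have 0.

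Within the clusters none of the 8 members passed the adjusted threshold in edgeR's test, for ZT14 against ZT18 (0.570% of all tested genes called), ZT22 against ZT2 (0.0317%) or ZT6 against ZT10 (0.0475%). DESeq2 also called 0 members in each of the 3. At an unadjusted p under 0.05 edgeR gave 0 members for ZT14 against ZT18 (13.5% of all tested genes), 1 for ZT22 against ZT2 (3.59%) and 2 for ZT6 against ZT10 (10.8%). These were *Fdft1*, higher at ZT22 than at ZT2 (log2 0.54, 95% interval 0.06 to 1.01, unadjusted p 0.0281, adjusted p 1.00) and lower at ZT6 than at ZT10 (-0.53, -1.01 to -0.06, 0.0295, adjusted p 0.420), and *Fdps*, lower at ZT6 than at ZT10 (-0.56, -1.06 to -0.05, 0.0326, adjusted p 0.423). The intervals still hold sizeable differences, such as -1.44 to 0.03 for *Idi1* between ZT14 and ZT18 and -0.16 to 1.22 for *Sqle* between ZT22 and ZT2. Replicates did not overlap for *Idi1* and *Sqle* between ZT14 and ZT18 (10.2% of all tested genes lower at ZT14), *Fdft1* between ZT22 and ZT2 (5.98% higher at ZT22) and *Lss* between ZT6 and ZT10 (5.50% higher at ZT6).

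Over the 18 libraries the levels correlated within each shape, which the grouping by shape itself fixes. Pearson's r of log2 CPM ran from 0.67 to 0.93 over the 15 pairs of the 6 genes with a trough at ZT6 and ZT10 (median 0.87), was 0.87 between *Sqle* and *Cyp51*, and lay between -0.43 and 0.04 over the 12 pairs across. These values hold the differences between clusters that all points share. As deviations from the mean of their own timepoint, which removes those differences, the same sets gave medians of 0.42, 0.71 and 0.21. On this scale the shapes were not set apart, since 9 of the 12 pairs across were above 0 (*Fdft1* with *Sqle* 0.39) and 4 of the 15 pairs within, all with *Lss*, were below 0. The median of the 7 correlations that a member had with the others was higher than its median with 9603 other genes of at least 10 CPM for 7 of the 8 members, for example 0.42 against 0.09 for *Fdft1* and 0.32 against 0.00 for *Sqle*. *Lss* was the exception at -0.11 against -0.04. The upper quartile of the other genes was still higher than the member median for *Fdps* (0.44 against 0.37), *Cyp51* (0.42 against 0.24), *Dhcr7* (0.20 against 0.11) and *Lss* (0.13), so 4 of the 8 members were above it. By the mean over members, the libraries that moved most were ZT22 replicate A, in which 7 of 8 members lay above the mean of their timepoint (by 0.32 on the log2 scale on average), and ZT22 replicate B, in which 1 of 8 did (-0.29 on average), while the median of the other genes deviated by 0.00 in both. By the median over members ZT6 replicate A (0.26), ZT18 replicate A (0.26) and ZT2 replicate C (-0.25) moved slightly more than these (0.24 and -0.24).

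**Figure D3:**
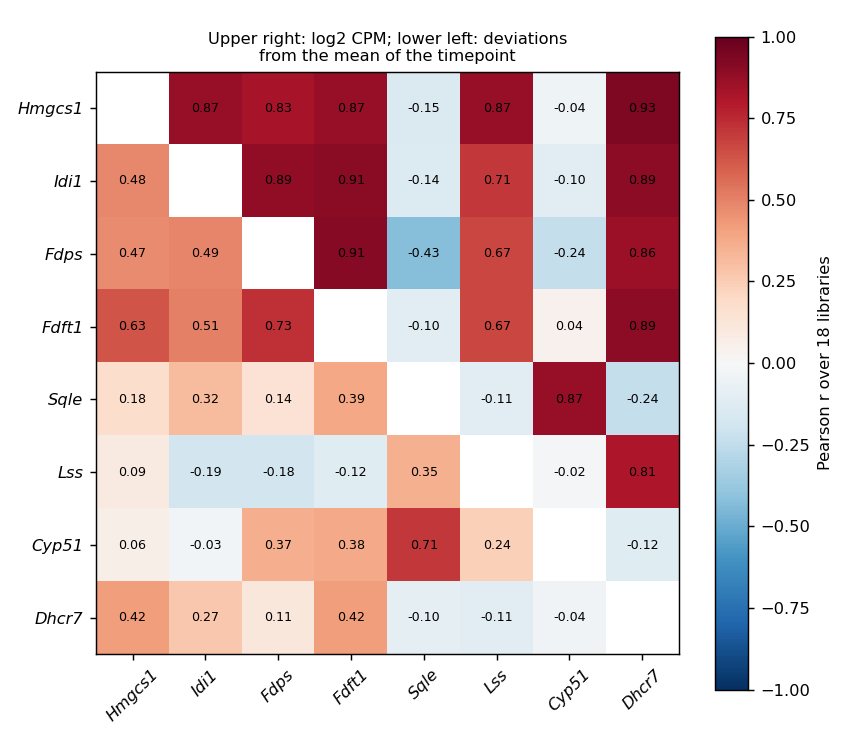
Pearson's r between the 8 enzymes over 18 libraries, for log2 CPM (upper right) and for deviations from the mean of the timepoint (lower left). *Sqle* and *Cyp51* correlate with each other at 0.87 and 0.71, and for log2 CPM between -0.43 and 0.04 with the remaining genes.

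Markers of some cell types moved with the same clusters. Their counts over time stand beside 44.0% of all tested genes and 6490 of the 9611 with a mean of at least 10 CPM. The summed level of 9 astrocyte markers was 6321 to 8417 CPM in the libraries of ZT22 and ZT2, 4053 to 5576 in those of ZT14 and ZT18 and 2735 to 3737 in those of ZT6 and ZT10, without overlap and in the order of the trough genes, and 8 of the 9 passed the time test. *Aldoc*, the most abundant of them, had 2649 CPM at ZT2 and 795 at ZT6. The list was not uniform, and its sum rests mainly on abundant genes such as *Aldoc* and *Slc1a3*. *Sox9*, named here after its values were seen, was called higher at ZT6 and ZT10 (log2 0.66, edgeR adjusted p 0.000767). *Gfap*, named likewise, was highest at ZT18 (459 CPM). It was called lower at ZT22 and ZT2 than at ZT14 and ZT18 (log2 -1.38, edgeR adjusted p 0.000532). In that comparison 5 of the 9 markers were called higher and 1 lower, beside 13.5% and 20.1% of all tested genes. Relative to 1000 CPM of the 9 astrocyte markers, *Hmgcs1* stood at 51.8 to 86.0 (median 63.9) at ZT22 and ZT2, 47.9 to 69.4 (60.0) at ZT6 and ZT10, and 61.6 to 84.7 (68.6) at ZT14 and ZT18. *Lss* likewise had medians of 7.44, 7.48 and 7.96, and *Fdft1* of 38.5, 32.9 and 40.2. On this scale the 3 clusters overlapped for *Hmgcs1*, *Lss* and *Fdft1*, while *Dhcr7* (13.03, 8.46 and 12.1), *Fdps* (33.4, 19.5 and 21.4) and *Idi1* (2.26, 1.51 and 2.07) kept a higher median at ZT22 and ZT2 than at ZT6 and ZT10, with ranges that also overlapped. *Sqle* was set further apart, with 3.32 to 15.2 per 1000 at ZT22 and ZT2 against 18.8 to 42.2 in all other libraries. Per 1000 CPM of the 10 oligodendrocyte markers the order was another one, with medians for *Hmgcs1* of 179 at ZT22 and ZT2, 92.4 at ZT6 and ZT10 and 65.1 at ZT14 and ZT18. The part of these cell types in the results was not tested.

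**Figure D4:**
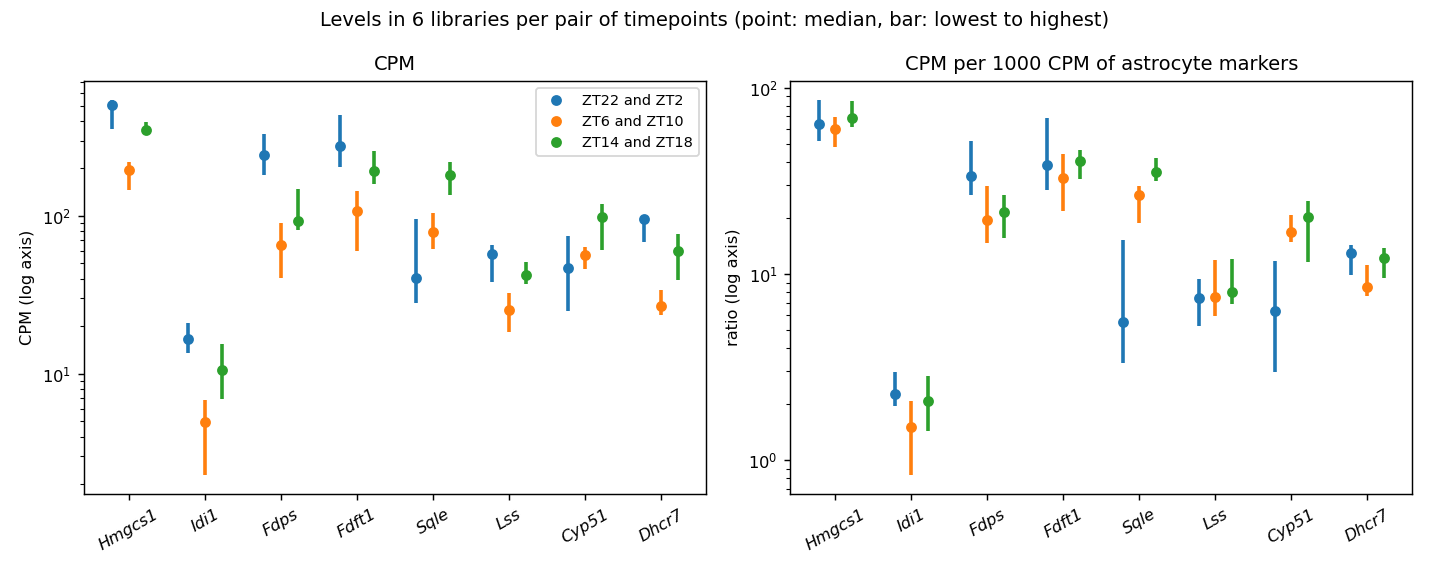
Level of each enzyme in 6 libraries per pair of timepoints, as CPM (left) and per 1000 CPM of the 9 astrocyte markers (right), on log axes, with points at the median and bars from the lowest to the highest library. For *Hmgcs1*, *Fdft1* and *Lss* the bars of ZT6 and ZT10 lie below the other bars in the left panel and overlap them in the right panel.

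Markers of oligodendrocyte precursors also had this trough. They summed to 32.4 to 56.6 CPM at ZT6 and ZT10, below 62.8 to 140 at ZT14 and ZT18 and 86.3 to 135 at ZT22 and ZT2. Of these markers 3 of 5 were called over time and 4 of 5 lower at ZT6 and ZT10 (21.1% of all tested genes). The counts over time in this paragraph stand beside 44.0% of all tested genes and 6490 of the 9611 with at least 10 CPM. Oligodendrocyte markers (10 of 10 called over time) summed to 4897 to 6244 CPM at ZT14 and ZT18, 2252 to 4566 at ZT22 and ZT2 and 1359 to 3197 at ZT6 and ZT10, but the list was split, since *Cnp* was highest at ZT18 (447 CPM) and *Mog* at ZT2 (64.2 CPM). SCN neuron markers (8 of 10) summed to 5180 to 6742 CPM at ZT6 and ZT10, 3270 to 5726 at ZT22 and ZT2 and 2378 to 3551 at ZT14 and ZT18, and none of them was at 0 in every library. Markers of microglia (6 of 7 called) summed to 105 to 277 CPM over all libraries, endothelial cells (4 of 7) to 127 to 308, and ependymal cells and tanycytes (1 of 5) to 12.9 to 61.4. Neighbouring hypothalamic neurons (3 of 9) reached 25.2 to 233 CPM and telencephalic excitatory neurons (3 of 5) 13.7 to 229.

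Among the rest of the cholesterol pathway, 9 of 13 tested genes changed over time. This stands beside 44.0% of all tested genes and 6490 of the 9611 with a mean of at least 10 CPM. All 13 reached that mean, so their share is not set apart from genes of such levels. The shapes again differed between enzymes. *Acat2*, which makes acetoacetyl-CoA, followed the trough genes with 183 CPM at ZT22 and 63.8 at ZT6, and so did *Nsdhl*, a C4 demethylation enzyme, with 163 at ZT22 and 50.9 at ZT6. *Msmo1*, which acts with *Nsdhl*, was also highest at ZT22 (308 CPM) and lowest at ZT6 (108). *Mvk* and *Mvd*, the mevalonate kinase and decarboxylase, were like *Sqle*: *Mvk* went from 7.10 CPM at ZT2 to 47.9 at ZT18, and *Mvd* from 11.4 at ZT2 to 42.5 at ZT14. *Tm7sf2*, a sterol C14 reductase, was lowest at ZT2 (42.9) and highest at ZT10 (127). *Sc5d*, a sterol C5 desaturase, was not called, with means of 88.0 to 115 CPM and an adjusted p of 0.562.

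As a set the regulators did not share the trough at ZT6 and ZT10. Of 7 genes of SREBP regulation 6 changed over time, beside 44.0% of all tested genes and 6490 of the 9611 with at least 10 CPM. In the comparison of ZT6 and ZT10 with the rest none was called lower (21.1% of all tested genes) and 4 were called higher (20.4%). *Srebf2*, the gene of SREBP2, measured 23.97 ± 0.747 CPM at ZT2 and 30.3 ± 3.47 at ZT22, but 102 ± 7.11 at ZT14 (adjusted p 1.34e-06). *Srebf1*, which favours fatty acid genes, was at 4.99 ± 1.18 CPM at ZT2 and 53.7 ± 4.16 at ZT14 (1.20e-06), and *Mbtps1*, a protease that releases SREBP, at 43.7 and 139 CPM. *Scap* was lowest at ZT2 (19.1) and *Insig1*, a retention factor and SREBP target, highest at ZT6 (133). *Insig2* alone was highest at ZT2 (176), and *Mbtps2* was not called (adjusted p 0.575). Means of *Srebf1* and *Srebf2* were thus lowest at ZT2 and ZT22, the timepoints at which 6 of the 8 members were highest, and *Sqle* and *Cyp51* had their lowest mean with them at ZT2.

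Genes of sterol handling and neighbouring routes were mixed. The counts over time of these lists stand beside 44.0% of all tested genes and 6490 of the 9611 with at least 10 CPM. In sterol uptake and transport 4 of 8 changed, among them *Lrp1*, a lipoprotein and ApoE receptor, with 297 CPM at ZT14 and 91.7 at ZT10. In sterol efflux and turnover 5 of 9 changed, with *Apoe* at 271 CPM at ZT2, 2165 at ZT6 and 1943 at ZT10, *Cyp46a1*, the neuronal cholesterol 24-hydroxylase, at 8.502 at ZT2 and 32.9 at ZT10, and *Abca1*, a cholesterol exporter, highest at ZT2 (58.5). In the isoprenoid branch 7 of 9 changed, with *Ggps1*, the geranylgeranyl diphosphate synthase, at 96.7 CPM at ZT2 and 38.8 at ZT10, and *Fntb*, a farnesyltransferase subunit, highest at ZT6 (252). In fatty acid synthesis 8 of 10 changed, but 4 of 10 with GC and length offsets. *Acly*, which supplies cytosolic acetyl-CoA, ran from 375 CPM at ZT2 to 71.2 at ZT10 and *Scd2*, a desaturase, from 2211 to 734, both with the trough of the cholesterol enzymes, whereas *Fasn* was lowest at ZT2 (57.8) and highest at ZT14 (215). With these offsets the time calls of *Fasn* (adjusted p 0.0851), *Cyp46a1* (0.359), *Mvd* (0.0865) and *Scap* (0.157) were lost. As a reference, 9 of 10 clock genes changed, with *Per2* at 123 CPM at ZT6 and 10.9 at ZT22 and *Dbp* at 105 at ZT6 and 12.9 at ZT18.

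The 10 genes most like the mean of the 8 members, each scaled to mean 0 and SD 1, included *Plekhb2*, *Slc26a11*, *Recql5*, *Aagab*, *Gm6768*, *Gstp1*, *Copg2*, *Ssrp1* and *Ppp1ca*, with Pearson's r of log2 CPM between 0.94 and 0.96 over the 18 libraries. All 10 had their lowest timepoint mean at ZT6 or ZT10, and none belongs to a list used here. *Plekhb2* fell from 1188 CPM at ZT2 to 289 at ZT6 and *Aagab* from 227 to 55.0. *Gstp1* stood apart at 541 CPM at ZT2 and 0.229 at ZT6, and *Ppp1ca* at 241 and 4.82. Both were as low at ZT6 in the recovered reads. Those reads come from the same authors and differ from the counts in most genes at ZT6 and ZT10, so they are no independent check. Whether processing has a part in the levels at ZT6 and ZT10, for these genes or for the members, was not tested. The correlations of the 10 genes with the member mean hold the differences between clusters that all points share, and their part in the likeness was not tested.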

How the data were processed

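Reads were trimmed, filtered and aligned by the authors to GRCm38 (mm10) with GSNAP and assigned to Ensembl genes with HTSeq 0.5.4p1. They deposited raw read counts per gene for 18 replicates (lanes combined). A second deposited table holds normalized signal, counts divided by size factors, from which whole reads were recovered (100% of values within 0.1 of a whole number). For ZT6 and ZT10 these differ from the counts in most genes, so they served only as an alternative. Symbols came from GENCODE vM21 (97.41% of identifiers matched).

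Tests covered the genes that had 1 or more reads in over 6 of the replicates. They were run with edgeR 4.0.16 in R 4.3.3 (TMM, quasi-likelihood F-test, Benjamini-Hochberg, threshold 0.05) in one fit of the 18 replicates, and contrasts were taken from it. A gene was called cycling when this test and JTK_CYCLE (rewritten in Python 3.11.15, exact null distribution, 24 hr period, 6 lags) both passed. DESeq2 1.42.0, limma 3.58.1, other normalizations, filters, left-out replicates and the replicate block were alternatives. log2 CPM used a prior count of 2. Methods were tested on simulated data. The replicates are separate pools of mice. Counts carry no molecular identifiers.

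The 8 enzymes and all gene lists were chosen with earlier results of these data known. The genes named are the members, up to 6 called genes with the smallest adjusted p and up to 3 uncalled genes with the highest mean per list, and the 10 genes most like the members, of which some are not reported here. Genes that share exon bases with *Fdps*, *Fdft1*, *Lss* and *Cyp51* are described with these members. Genes that were not counted also share exon bases, on the other strand, with *Hmgcs1* (557 bases) and *Idi1* (323 bases). The part of such reads in these 2 members was not tested.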

Additional observations from a re-analysis of the deposited data

How the results depend on the processing

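All 8 members stayed called over time and cycling, and 0 were called in each comparison within a cluster, under every alternative run, which were upper-quartile scaling or DESeq2's factors in edgeR, no filter or at least 10 reads in every replicate, recovered reads, GC and length offsets (chosen after seeing the data), each of the 18 replicates left out and, where they apply, DESeq2, a fit to only the 6 replicates of the pair, limma's cosine fit and JTK_CYCLE p adjusted over genes. The count lower in the light was 6 to 8 of 8, the count lower at ZT6 and ZT10 was 6 throughout, and the count of other pathway genes changing over time was 9 or 10. Between ZT22 with ZT2 and ZT14 with ZT18 the count ran from 5 to 8, with *Lss* called under upper-quartile normalization (log2 0.50) and DESeq2 (0.41). DESeq2 called more genes overall than edgeR within the clusters, 842 against 108 for ZT14 and ZT18, 34 against 6 for ZT22 and ZT2 and 246 against 9 for ZT6 and ZT10, but no member. Of the 10 fatty acid synthesis genes 8 were called over time, and 4 with GC and length offsets. No direction of a called difference reversed. Replicate letters showed no sign of pairing the samples. Deviations correlated above 0.1 in 9 of 45 same-letter pairs and in 16 of 90 pairs of different letters. With the replicate block 8 members were called over time, 8 lower in the light and 0 in each comparison within a cluster. Leaving out a replicate leaves 2 in that group, and *Idi1*, with as few as 48 reads, is the member that depth limits most.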
